A study of Macaca mulatta with 5 samples.

Results

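Proximal tubule cells were the cells that the study had placed in clusters c6, c7, c8 and c18, each of which carried the name Proximal tubule in the deposited table. They were chosen by that name alone. In the 5 rhesus macaque libraries analysed, 6638 of 36039 cells had 1 of these 4 names, and the table held 37 cluster names in all. The proximal tubule is the first stretch of tubule after the glomerulus, and it takes back most of the filtered salt, glucose, amino acids and small proteins. Its cells form early in each new nephron, first as part of the S-shaped body and then as a polarised epithelium with a brush border. Cubilin (CUBN) and megalin (LRP2) are its receptors for filtered protein, HNF4A is a transcription factor of its maturation, and SLC3A1 is part of its cystine transporter. The table held no gene values, so the name could not be checked against these 4 markers.

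All libraries held kidney cells of fetal rhesus macaques, enriched for the cortex and taken in the late second or the third trimester, and were sequenced with 10x Genomics 3' chemistry, a droplet method that tags the RNA of each cell. In libraries 600 and 628 the cortex was cut out by hand and digested with a cold-active enzyme mix, and these are called dissected here. In libraries 623, 627 and 632, called vortexed here, kidneys were vortexed in a cold Bacillus licheniformis mix that favours cortical cells. No genotype, treatment or exact age per library was given, and any such difference between libraries cannot be told apart from the preparation. The libraries held 6839 (600), 6329 (628), 9816 (623), 10502 (627) and 2553 (632) cells. Sequencing depth is unknown, because the table gives no counts, so all values are shares of cells. A share also cannot tell more proximal cells from fewer cells of other kinds.

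Proximal tubule cells made up between 16.3% and 25.1% of a library. Their share was 20.6% in library 600 (exact 95% binomial interval, 19.6 to 21.6) and 17.5% in library 628 (16.6 to 18.5) among the dissected libraries. It was 16.3% in library 623 (15.5 to 17.01), 17.9% in library 627 (17.2 to 18.7) and 25.1% in library 632 (23.4 to 26.8) among the vortexed ones. Library 632, the smallest, was the highest, and the preparations overlapped. The means were 19.1% ± 2.19 (SD, n = 2) for dissected and 19.8% ± 4.67 (n = 3) for vortexed libraries. The difference of -0.70 percentage points gave an exact two-sided permutation p = 0.9, in a design whose smallest possible p is 0.1. In library 632, 20.2% of the proximal cells lay in an area of the authors' embedding that they shared with leukocyte names, described below.

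Of the 4 clusters, c18 was the largest on average and c6 the smallest, but the libraries divided their proximal cells very differently. Cluster c18 held 42.4% of the proximal cells of library 600, 33.2% of 628, 38.2% of 623, 69.2% of 627 and 46.7% of 632. Library 627 stood highest, well above library 632, and library 628 was lowest. The mean was 45.9% ± 13.9 (SD, n = 5). Cluster c7 held 31.4% in library 600, 19.7% in 628, 30.1% in 623, 13.5% in 627 and 21.4% in 632, with a mean of 23.2% ± 7.48. Library 627 was the lowest here, and libraries 600 and 623 were nearly alike.

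Cluster c8 held 23.3% of the proximal cells of library 600, 33.8% of 628, 25.4% of 623, 16.2% of 627 and 15.3% of 632, with a mean of 22.8% ± 7.55. In library 628 it was as frequent as c18, with 375 cells against 368. Cluster c6 was the most variable, at 2.91%, 13.3%, 6.32%, 1.11% and 16.6% of proximal cells in libraries 600, 628, 623, 627 and 632, a 14.9-fold range. The other clusters ranged 2.08-fold (c18), 2.33-fold (c7) and 2.21-fold (c8). These differences were larger than counting error. The chi-square of the 4 clusters over all 5 libraries was 70.1 per degree of freedom, and the most alike pair, the dissected library 600 and the vortexed library 623, still gave 7.89. The dissected pair gave 53.3.

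**Figure D1:**
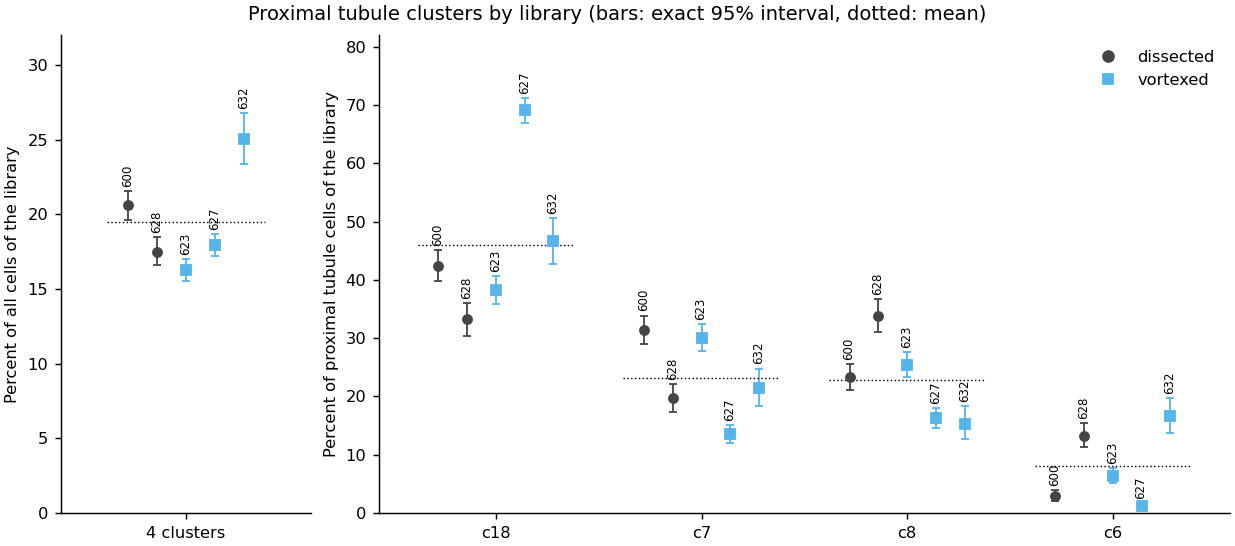
Left, proximal tubule cells as a percent of all cells of each library; right, each cluster as a percent of the proximal cells. Circles are dissected and squares vortexed libraries, bars are exact 95% binomial intervals and dotted lines are means over the 5 libraries; library 627 stands highest for c18 with 69.2%, and c6 runs from 1.11% to 16.6%.

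Within a library, c18 outnumbered c7 in 5 of 5 libraries. The excess was 1.27-fold in library 623 and 5.12-fold in library 627, with the others between. With 0.5 cells added to each count, the log2 ratio averaged 1.00 ± 0.82 (SD over 5 libraries). An exact sign-flip test, two-sided, gave p = 0.063, which is as small as 5 libraries permit, and p = 0.125 after Benjamini-Hochberg adjustment over the 6 pairs. Cells of c18 also outnumbered c6 in 5 of 5 libraries, by 3.03 ± 1.91 on the log2 scale (exact p = 0.063, adjusted p = 0.125), and c8 in 4 of 5, by 1.02 ± 0.84 (exact p = 0.125, adjusted p = 0.15). Library 628 was the exception for c8. Clusters c7 and c8 could not be ordered: c8 was the larger in libraries 628 and 627 only, and the mean log2 ratio of c8 to c7 was -0.021 ± 0.54 (exact p = 1, adjusted p = 1). Cluster c7 exceeded c6 in 5 of 5 libraries (2.03 ± 1.52, exact p = 0.063, adjusted p = 0.125), and c8 exceeded c6 in all libraries except 632 (2.01 ± 1.52, exact p = 0.125, adjusted p = 0.15). No pair passed an adjusted p of 0.05.

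Comparing the preparations asks whether the way the cortex was released changed which proximal cells were recovered. As a share of proximal cells, c18 averaged 37.8% ± 6.53 (n = 2) in dissected and 51.4% ± 16.0 (n = 3) in vortexed libraries. Cluster c8 averaged 28.6% ± 7.47 against 19.0% ± 5.59, c7 25.5% ± 8.27 against 21.6% ± 8.29 and c6 8.09% ± 7.32 against 8.00% ± 7.86. The 2 dissected and 3 vortexed values overlapped for each cluster. Exact two-sided permutation p was 0.4 for c18, 0.3 for c8, 0.7 for c7 and 1 for c6, with adjusted p of 0.8, 0.8, 0.933 and 1 over the 4 clusters. The c18 difference of -13.5 points was -4.63 points without library 627, and the c8 difference of 9.57 points was 4.29 points without library 628. The c7 difference of 3.87 points was -1.97 points without library 600, and it ranged up to 9.72 points without library 628. The c6 difference of 0.088 points ran from -5.09 points without library 628 to 5.27 points without library 600.

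As a share of all cells, none of the 4 clusters was called by limma, fitted over the log2 odds of all 37 clusters. Over those clusters, 0% were called at an adjusted p of 0.05, 13.5% had an unadjusted p below 0.05, and 29.7% had shares that did not overlap between preparations. Of the proximal clusters, c8 was among these, at 4.80% and 5.93% of all cells in libraries 600 and 628 against 4.14%, 2.91% and 3.84% in 623, 627 and 632, and the shares of c18, c7 and c6 overlapped. The log2 odds ratio of dissected to vortexed was 0.59 for c8 (SE 0.64, limma adjusted p = 0.706) and -0.48 for c18 (SE 0.70, limma adjusted p = 0.786). For c7 it was 0.25 (95% interval -1.44 to 1.95) and for c6 0.30 (-2.69 to 3.30), intervals wide enough to hold changes of several-fold either way.

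Proximal cells were set against 3 neighbouring parts of the nephron. Broad proximal diff (c17), by its name a differentiating stage on the proximal side, had 527, 336, 495, 700 and 100 cells in libraries 600, 628, 623, 627 and 632. With 0.5 cells added, the ratio of proximal cells to c17 was 2.67 in library 600, 3.29 in 628, 3.22 in 623, 2.69 in 627 and 6.37 in 632. Library 632 stood apart, and the other 4 libraries lay close together. Proximal cells outnumbered podocytes (c20), the filtering cells of the glomerulus, 1.16-fold in library 600 and between 5.85-fold (632) and 7.72-fold (628) in the others. The mean log2 difference between preparations was -0.36 for the ratio to c17 (exact permutation p = 0.8, adjusted p = 0.8 over 3 ratios) and -1.04 for the ratio to podocytes (p = 0.4, adjusted p = 0.6). Without library 600 the podocyte difference was 0.33, and without library 632 the c17 difference was 0.011.

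The ratio to the distal nephron (the cells named Loop of Henle, Thick ascending limb or Distal convoluted tubule) did not overlap between preparations. The mean log2 ratio was 1.45 ± 0.28 in dissected and 3.09 ± 0.56 in vortexed libraries. The difference of -1.65 reached the smallest possible exact p of 0.1 (adjusted p = 0.3), and shares of 29.7% of all clusters did not overlap either. The proximal share itself differed by -0.70 points, as given above. Of the distal clusters, Thick ascending limb (c12) had a log2 odds ratio of 2.27 (SE 0.72, limma adjusted p = 0.176). Loop of Henle (c15) had 1.35 (SE 0.73, limma adjusted p = 0.487). Distal convoluted tubule (c10) had 0.70 (SE 0.72, limma adjusted p = 0.695). Which part of the ratio differed was not tested.

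The table also places each cell in a two-dimensional embedding, a UMAP of the integrated rhesus and human cells, whose axes have arbitrary units. Names and positions come from the same data, so positions are described here without a test, apart from 1 comparison of preparations. Proximal cells lay in 3 separate areas. The main field, on the left of the map, held 5158 of the 6638 cells (77.7%), a middle band held 1143 (17.2%), an arc at the upper right held 297 (4.47%), and 40 lay elsewhere. Grouping the proximal cells by density (DBSCAN) instead of by drawn limits gave components of 5149, 1127 and 297 cells.

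**Figure D2:**
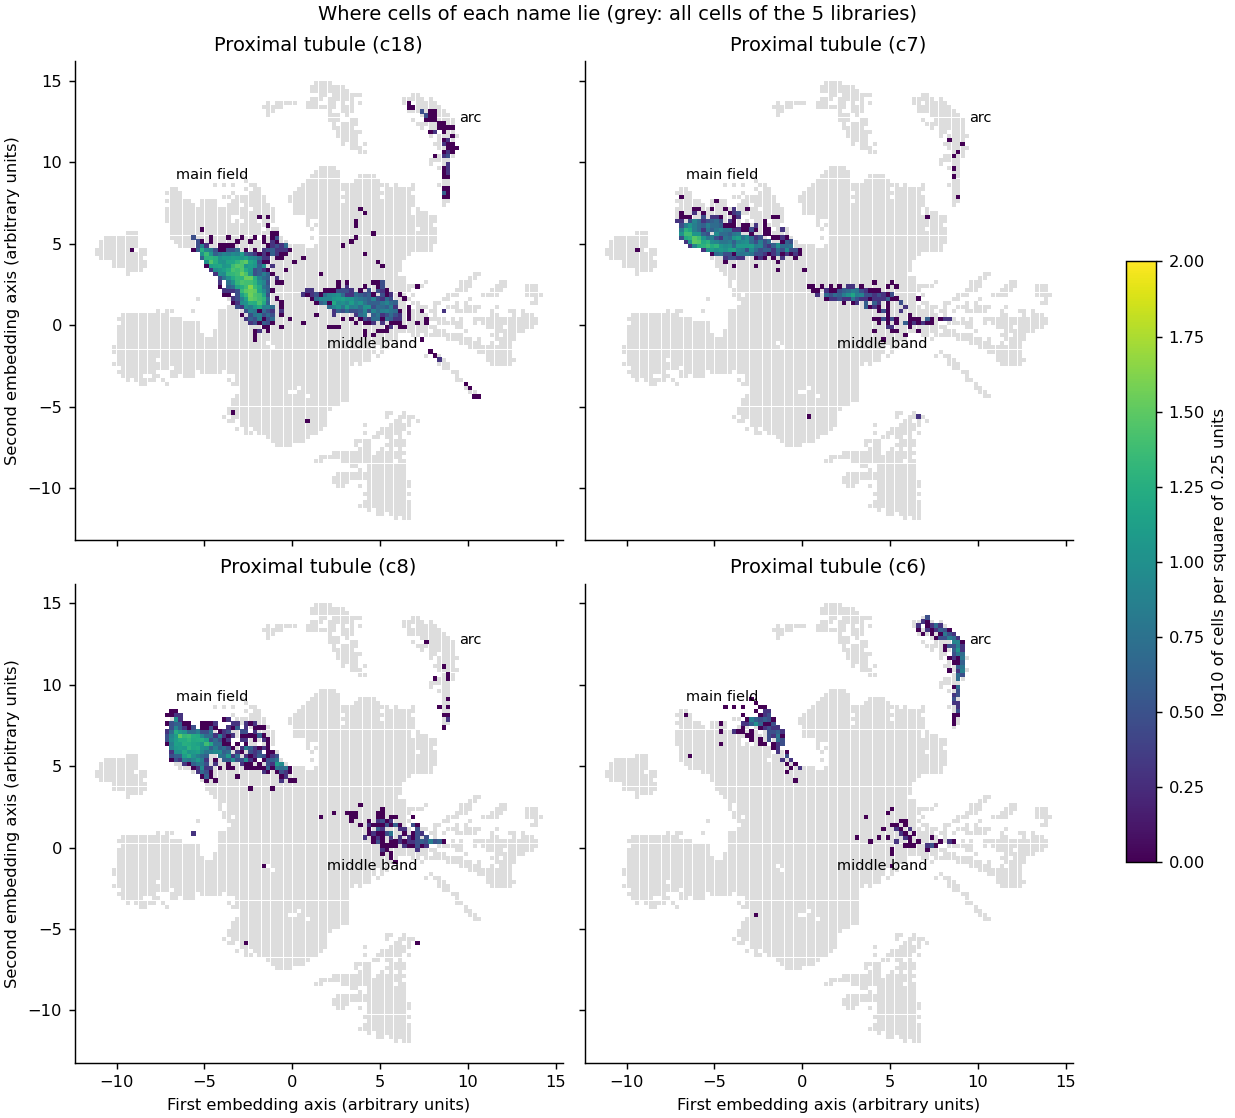
Number of cells of each proximal name per square of 0.25 units in the authors' embedding (log10 scale), over all cells of the 5 libraries in grey. Clusters c18, c7 and c8 fill bordering parts of the main field and recur in the middle band, while 211 of the 416 c6 cells lie in the arc.

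In the main field the clusters followed each other in 1 order away from c17. The distance from the median position of c17 was 1.91 ± 0.46 units for c18, 4.50 ± 0.16 for c7 and 5.68 ± 0.36 for c8 (SD, n = 5). The order c18, c7, c8 was found in 5 of 5 libraries, with medians or with means as centres. In the middle band it could be read in 2 libraries and was found in 1 of them. In the main field, c6 had enough cells for a position in library 628 only. The median of its 130 cells lay 4.50 units from c17, against 4.40 units for c7 and 5.61 for c8 in that library. Distances in such an embedding are not to scale, so the order describes the layout and not a course of maturation.

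The names were mixed to different degrees. Among the 15 nearest cells of the same library, the same name made up 65.7% ± 5.58 for c18, 62.8% ± 6.26 for c8, 52.3% ± 3.79 for c7 and 36.0% ± 20.2 for c6 (SD, n = 5). Cluster c7 lay between the others, with 22.5% ± 4.61 of its neighbours named c8 and 12.2% ± 3.18 named c18. The neighbours of c8 were proximal by name in 93.0% ± 4.12 of cases, mostly c8 itself or c7 (23.8% ± 5.98). Over all areas, c17 made up 11.5% ± 1.93 of the neighbours of c18 and 4.51% ± 0.289 of those of c7. For c6 the range over libraries was wide, with 7.30% same-name neighbours in library 627 and 64.1% in library 628. Its other leading neighbours were c8 (13.3% ± 8.15), Monocyte (c34) (12.6% ± 12.1), c18 (9.64% ± 7.96) and Fibroblast (c26) (6.42% ± 5.80).

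The middle band held cells of each name, apart from the main field. It held 21.6% ± 2.10 of c18, 15.9% ± 6.42 of c7, 9.39% ± 9.14 of c8 and 13.6% ± 10.0 of c6 (SD, n = 5). Proximal cells were not in the majority there. Only 33.8% ± 9.29 of the neighbours of c18 cells in the band were proximal by name, against 87.6% ± 4.05 in the main field. There c17 made up 19.6% ± 3.95 of the neighbours of c18 and 16.9% ± 5.18 of those of c7, the latter over the 4 libraries with at least 20 such cells.

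The band's share of all proximal cells was 13.2% in library 600 and 10.6% in 628, and 23.8%, 19.0% and 15.8% in 623, 627 and 632. The dissected libraries were lower and the preparations did not overlap (11.9% ± 1.80, n = 2, against 19.5% ± 4.03, n = 3; exact permutation p = 0.2). Of the single clusters, c7 and c8 did not overlap either. Cluster c7 had 13.1% and 7.34% of its cells in the band in libraries 600 and 628, against 24.4%, 19.3% and 15.3% in 623, 627 and 632. Cluster c8 had 4.57% and 2.67% there, against 25.1%, 9.48% and 5.10%. Of 30 clusters with at least 10 cells in each library, proximal or not, 30% had band shares that were lower in the dissected libraries without overlap. The share of c18 in the band overlapped, at 18.2% and 23.1% against 22.3%, 21.1% and 23.4%.

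**Figure D3:**
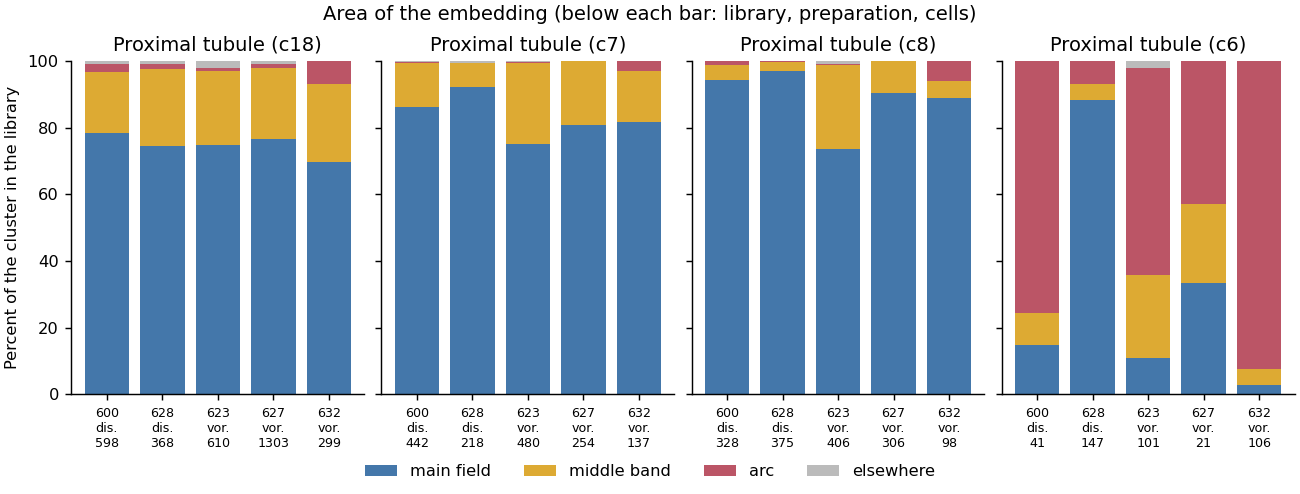
Percent of the cells of each proximal cluster in the main field, the middle band, the arc and elsewhere, by library, with dissected libraries first. Bars for c18 are nearly alike across libraries, with 18.2% to 23.4% in the band, while c6 is mostly in the main field in library 628 (88.4%) and mostly in the arc in library 632 (92.5%).

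The arc set c6 apart from the other proximal clusters. It held 31 of 41 c6 cells in library 600, 10 of 147 in 628, 63 of 101 in 623, 9 of 21 in 627 and 98 of 106 in 632, or 75.6%, 6.80%, 62.4%, 42.9% and 92.5%. Library 628 was low and library 632 high, each within another preparation. The arc held 2.08% of c18, 0.859% of c8 and 0.457% of c7 over all libraries. Of the 633 cells of any name in the arc, 297 were proximal by name and 193 carried leukocyte names. Of the proximal cells there, 211 were c6 and 66 c18, and in library 627 c18 had 19 against 9 of c6. The leukocytes were mainly Monocyte (c34), circulating phagocytes that enter tissue, with 133 cells. T cell (c32) followed with 31 and Macrophage (c33) with 23. Among names neither proximal nor leukocyte, Fibroblast (c26) was the most frequent, with 55 cells.

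Cells of c6 and of Monocyte (c34) covered overlapping stretches of the arc, as did other names there. The median position on the second axis was 12.1 for c6 (interquartile range 11.0 to 12.9) and 12.7 for c34 (11.8 to 13.4). It was 11.6 for Macrophage (c33) (10.6 to 12.3) and 11.1 for T cell (c32) (10.4 to 12.1). For c18 it was 11.1 (9.71 to 12.3) and for Fibroblast (c26) 10.4 (9.10 to 11.4). Monocyte (c34) had 14, 6, 37, 2 and 74 cells in the arc in libraries 600, 628, 623, 627 and 632, beside 31, 10, 63, 9 and 98 cells of c6, so both names ranked the 5 libraries alike, also as a percent of the library. Those percents were 3.84% for c6 and 2.90% for c34 in library 632, and 0.0857% and 0.0190% in library 627. All cells of the arc together, c6 and c34 included, ranked the libraries in the same order as a percent of the library. They made up 11.5% of library 632, 1.41% of 623, 1.20% of 600, 0.743% of 628 and 0.695% of 627. That total cannot tell whether the order is particular to c6 and c34, because they supplied 211 and 133 of its 633 cells. The next most frequent names did not follow it. In libraries 600, 628, 623, 627 and 632, c18 had 15, 6, 5, 19 and 21 cells in the arc. Fibroblast (c26) had 4, 9, 5, 16 and 21. Whether the order is particular to c6 and c34 was not tested. Library 632 also had the highest share of leukocyte names among all its cells, 9.56%. The other libraries did not follow the order of c6 in the arc, with 4.28% leukocyte names in library 627, which had the fewest such c6 cells, 2.84% in 628, 1.57% in 623 and 1.37% in 600. In the 3 libraries with at least 20 c6 cells in the arc, leukocyte names made up 25.2% (600), 31.5% (623) and 46.0% (632) of the neighbours of those cells. In library 632, the 21 c18 cells of the arc had 31.1% leukocyte names among their neighbours, with 13.3% named Monocyte (c34). The c6 cells of the arc in that library had 46.0% and 31.8%. Whether the mixing goes with the area or with the name was not tested. The main field held no cell with a leukocyte name, so the share there was 0% for any cluster. The part of leukocytes in the c6 cells of the arc was not tested, since the table holds no gene values.

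**Figure D4:**
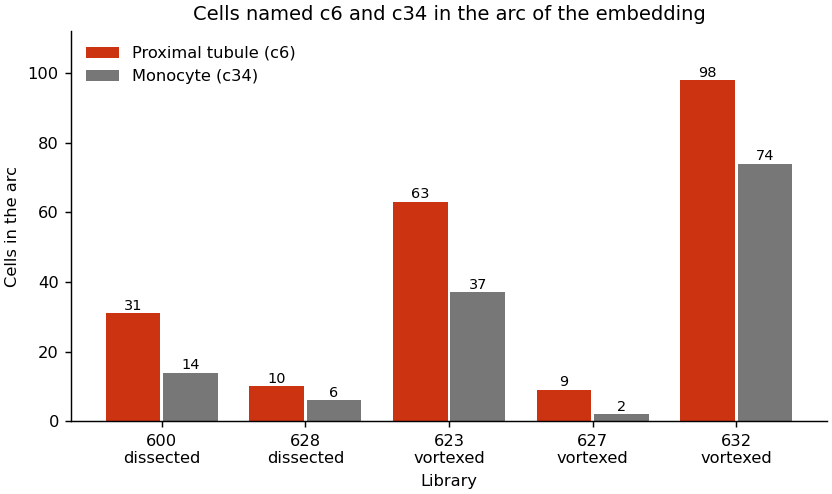
Number of cells named Proximal tubule (c6) and Monocyte (c34) in the arc of the embedding, by library. Both counts are highest in library 632, with 98 and 74 cells, and lowest in library 627, with 9 and 2.

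Outside the arc, c6 was mainly a cluster of library 628. That library supplied 137 of the 205 remaining c6 cells, and they made up 12.6% of its proximal cells outside the arc, against 0.647% to 2.49% in the other libraries. In the main field of library 628, 99.7% of the neighbours of c6 cells were proximal by name. Restricted to the main field, c18 held between 28.3% (628) and 67.1% (627) of the proximal cells, c7 between 13.8% (627) and 32.7% (600) and c8 between 18.6% (627) and 37.6% (628). There c8 was the largest cluster in library 628, and c18 in the other 4 libraries.

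The balance of species was counted over all rows of the deposited table, pooled. It holds 64782 rhesus rows, of which 36039 are in the 5 libraries, and 29484 human rows, which the series' design text describes as public fetal kidney data from earlier in gestation. Further library names have no sample in the labels used here, so these counts have no replicates and no test, and species cannot be told apart from age, laboratory and preparation. Proximal names covered 23.03% of rhesus rows and 4.98% of human rows. Rhesus rows made up 68.7% of the table, but 98.9% of c6, 98.9% of c8, 94.0% of c7 and 81.3% of c18. Clusters c6 and c8 ranked 5 and 6 of the 37 clusters by their rhesus percent, c7 ranked 12 and c18 ranked 20.

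Human proximal rows were mostly c18. Of 1467 human proximal rows, 82.6% were c18, 12.1% c7, 3.00% c8 and 2.32% c6. Rhesus proximal rows of the 5 libraries were 47.9% c18, 23.1% c7, 22.8% c8 and 6.27% c6. The 8283 other rhesus proximal rows were 25.4% c18, 14.8% c7, 28.0% c8 and 31.8% c6. Cluster c6 was therefore mainly a cluster of the rhesus rows not in the 5 libraries, which held 2632 of its 3048 rhesus rows. Of those 2632, 91.0% lay in the main field and 6.31% in the arc, against 37.7% and 50.7% for c6 in the 5 libraries.

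**Figure D5:**
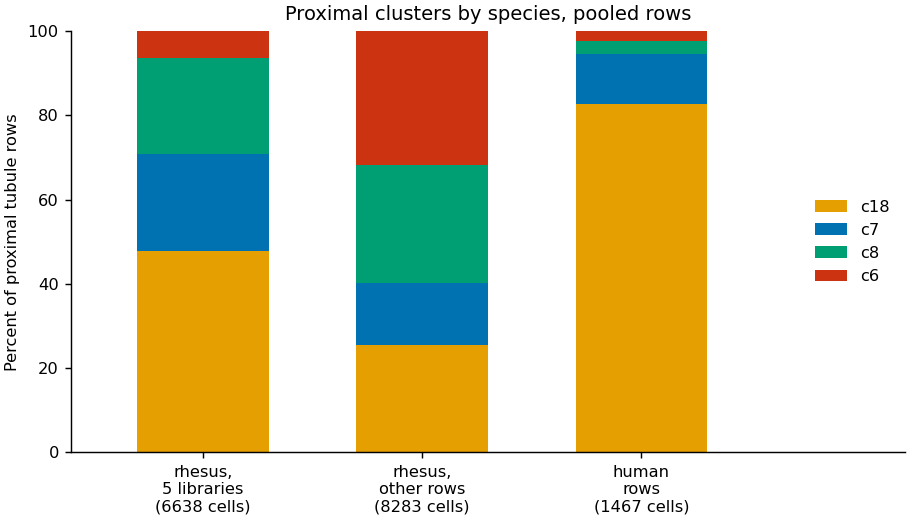
Percent of proximal tubule rows in each cluster, for the 5 analysed rhesus libraries, the other rhesus rows and the human rows, each pooled. Cluster c18 makes up 82.6% of the human rows, 47.9% of the rows of the 5 libraries and 25.4% of the other rhesus rows.

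The human cells named c18 did not lie where the rhesus cells of that name lay. In the main field, their median on the second axis was 5.72, against 2.99 for c18 of the 5 libraries and 3.19 for the other rhesus rows. For each human c18 row, the 15 nearest cells of the 5 libraries were taken. They were named c8 in 42.7% of cases, c7 in 25.7% and c18 in only 12.6%. For the other rhesus rows named c18, the nearest cells of the 5 libraries were c18 in 54.4% of cases and c8 in 2.49%. The 177 human c7 rows had 60.8% c8 and 34.6% c7 cells nearest to them, against 39.2% and 40.3% for the other rhesus rows named c7. Human c8 rows, only 44 in number, had 78.6% c8 neighbours, against 70.9% for the other rhesus rows named c8. Human rows of each proximal name had c8 as their most frequent neighbour name, so this share does not show a match particular to c8. The 34 human c6 rows had 61.4% c8 and 25.1% c6 cells nearest to them, against 18.2% and 72.7% for the other rhesus rows named c6. Human rows were also nearly absent from the middle band, with 7 of 1467 proximal rows (0.477%), against 17.2% in the 5 libraries and 12.9% of the other rhesus rows.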

How the data were processed

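The authors made droplet single-cell RNA libraries (10x Genomics 3' version 3, with 16000 cells loaded to recover 10000), per the labels' protocols. The build hg19, Seurat and Cell Ranger 6.0.1 appear in the submitters' processing notes. How cells were filtered, integrated and clustered, and whether doublets were removed, is not given in the sources used here. Each row of the deposited table gives, per the file headers, a cell's cluster name, library, species and embedding position, a score in arbitrary units. It holds no counts, so depth is unknown and marker genes could not be read.

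Library names were matched to sample titles, which gave 5 libraries. The 11 other library names (58227 rows) match no sample and entered only pooled counts and positions by species. Groups follow the library numbers named in the extraction protocol. Whether each library is a separate animal is not stated. The p-values then measure only the spread between libraries, which may be technical. Of proximal cells, 0.738% share a barcode with another of the 5 libraries. There are 7 identifiers that occur on a rhesus and a human row with 1 position, and 2 of these are proximal cells of library 627. Those rows were left out of the neighbour search between species.

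Shares have exact (Clopper-Pearson) 95% intervals, which cover counting error only. Group means weigh libraries equally. Tests were exact permutations over 10 splits, exact sign flips over 32 patterns, and limma 3.58.1 (R 4.3.3) on log2 odds with 0.5 cells added. Clusters needed at least 10 cells. This fit was also run on simulated data with known changes. The spread set there between libraries was smaller than that of the proximal clusters. That run therefore does not show which changes the fit could miss here. Adjustment was by Benjamini-Hochberg, with a threshold of 0.05. Neighbours were the 15 nearest cells (scikit-learn 1.9.0). Positions needed at least 20 cells. The areas were drawn after the positions had been seen: main field, first axis below 0.5 and second above 0; middle band, first axis 0.5 to 9 and second -1 to 3.5; arc, first axis over 8 with second over 7, or first over 6 with second over 9.5. DBSCAN used a radius of 0.5 and at least 10 cells. Clusters outside the proximal names were named where a ratio used them or where they made up at least 5% of a cluster's neighbours. The leading names of the arc were chosen after their values were seen. Members, lists and tests were chosen with earlier results of these data known. Alternatives covered the denominator, scale, cells added, filter, number of neighbours, centre, areas and leaving out each library.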

Additional observations from a re-analysis of the deposited data

Results flagged for a closer look

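Over the 5 libraries taken as 1 group, 35 values were looked at for a library whose gap to the nearest other was large against the whole range. There were 8 such values. The limit used gives about 1 in 20 for independent values with a normal spread. Many of the 35 share cells and several are percents near 0, so the 8 cannot be read as an excess over chance. Library 632 accounted for 6 of them. It had a log2 ratio of proximal cells to c17 of 2.67, against 1.42 to 1.72 elsewhere. It had 20.2% of its proximal cells in the arc (1.49% to 4.45% elsewhere), with 7.02% of c18 (0.820% to 2.51%), 6.12% of c8 (0% to 1.22%) and 2.92% of c7 (0% to 0.452%). Its c6 cells in the arc made up 3.84% of the library (0.0857% to 0.642% elsewhere). Library 632 was also the smallest and had the largest leukocyte share, 9.56%, and the part of either in these values was not tested. Library 600 had a log2 ratio of proximal cells to podocytes of 0.22, against 2.55 to 2.95 elsewhere. Library 628 had c6 at 12.6% of proximal cells outside the arc, against 0.647% to 2.49% elsewhere.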

How the results depend on the processing

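No paired analysis was possible because the labels give no replicate numbers that the preparations share. Of 63 alternatives other than leaving out a library, 54 kept direction and side of the threshold or stayed within 1 SD. No alternative brought a value past an adjusted p of 0.05, and limma called 0 clusters under each, but the permutation tests cannot pass 0.05. The proximal difference between preparations turned to 2.25e-05 points without cells of the arc. The c6 difference turned to -0.506 points with c17 in the denominator. The log2 ratio of c8 to c7 turned to 0.071 in the main field. The limma values turned to -0.013 (c6) and -0.071 (c7) with nephron-lineage cells (13 clusters) as denominator, and to -0.012 (c7) with the centred log-ratio. With 50 neighbours, c7 had 47.6% of its own name. Mean positions put c7 at 4.32 and c8 at 5.28 units from c17. The cause of these changes was not tested. The alternatives without the arc, within the main field and without repeated identifiers, and DBSCAN areas, were chosen after seeing the data.

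Of 140 values with 1 library left out, 16 changed direction. The proximal difference ranged from -2.45 to 1.95 points, and the c6 and c7 differences from -5.09 to 5.27 and from -1.97 to 9.72 points. The log2 ratio of c8 to c7 ranged from -0.22 to 0.095. Differences in the log2 ratio to c17 ranged from -0.61 to 0.011 and to podocytes from -2.41 to 0.33. The limma values ranged from -0.82 to 1.38 for c6 and from -0.22 to 0.73 for c7. Depth is unknown, so what it limits could not be read.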
